A study of Mus musculus with 6 samples.

Results

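Activins are secreted signalling proteins of the transforming growth factor beta (TGF-beta) family, and 9 genes of their pathway were followed in the mouse hippocampus after a seizure. The 9 were found by gene symbol among the 23361 symbols of an expression table. They are the ligand subunit genes Inhba and Inhbb, the antagonist gene Fst, the type I receptor genes Acvr1, Acvr1b and Acvr1c, the type II receptor genes Acvr2a and Acvr2b, and the inhibitory Smad gene Smad7. All 9 had values above 0 in each of 6 libraries, and 8 of them had a mean of at least 1 FPKM (fragments scaled by transcript length and by the mapped total of the library), the level needed to enter the test. Fst lay just under that level.

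The study set mice with a homozygous deletion of exon 4 of Tet1, labelled Tet1Δe4-/-, beside Tet1+/+ wild-type mice. The Tet1 enzyme oxidises methylated cytosine in DNA. Both genotypes received electroconvulsive shock at the ears, 18 mA at 100 Hz with pulses of 0.2 ms for 1.15 seconds, which evokes a tonic-clonic seizure. Whole hippocampus was taken 1.5 to 2 hours later, with 3 mice and 3 libraries per genotype. The time of each mouse within that window is not given in the sources used here, nor are its age and strain. Unshocked mice were not analysed here, and the values are therefore levels after a seizure and not responses to it.

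A dimer of inhibin beta subunits forms an activin, and the subunit encoded by Inhba makes activin A. The ligand binds a type II receptor, which recruits and phosphorylates a type I receptor, and the type I receptor phosphorylates Smad2 and Smad3, which enter the nucleus with Smad4. Follistatin, encoded by Fst, binds activin outside the cell and blocks it, and Smad7 acts inside the cell at the type I receptor. In hippocampal neurons Inhba is known as a gene that synaptic activity and seizures induce, and activin A is known to act on excitatory synapses and on the survival of neurons.

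The upstream sequences of Inhba, Inhbb and Acvr2a are shown as examples. Their levels parted 2 libraries from the other 4, the first pair low where Acvr2a was high. Acvr2b and Acvr1c parted the same libraries, as did 63.5% of all tested genes. A relation of these sequences to the levels was not tested. Each runs over the 250 bases before an annotated start, 5′ to 3′ on the strand of the gene, from RefSeq on GRCm38.p6. Where a gene had several starts, only the first one listed was used, here and for all members searched. Inhba lies at chr13:16011601-16011850 on the plus strand, Inhbb at chr1:119422249-119422498 on the minus strand and Acvr2a at chr2:48813859-48814108 on the plus strand. Capitals mark every match to a searched motif on either strand.
Inhba: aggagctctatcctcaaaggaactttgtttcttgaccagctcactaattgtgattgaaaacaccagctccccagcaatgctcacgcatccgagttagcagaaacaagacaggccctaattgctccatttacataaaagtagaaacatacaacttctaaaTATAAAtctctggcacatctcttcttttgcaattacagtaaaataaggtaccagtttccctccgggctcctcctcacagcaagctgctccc
Inhbb: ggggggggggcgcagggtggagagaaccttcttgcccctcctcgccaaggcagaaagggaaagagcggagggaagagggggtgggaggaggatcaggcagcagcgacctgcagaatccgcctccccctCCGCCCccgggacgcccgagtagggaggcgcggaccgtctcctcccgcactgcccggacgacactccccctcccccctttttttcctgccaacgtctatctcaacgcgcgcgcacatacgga
Acvr2a: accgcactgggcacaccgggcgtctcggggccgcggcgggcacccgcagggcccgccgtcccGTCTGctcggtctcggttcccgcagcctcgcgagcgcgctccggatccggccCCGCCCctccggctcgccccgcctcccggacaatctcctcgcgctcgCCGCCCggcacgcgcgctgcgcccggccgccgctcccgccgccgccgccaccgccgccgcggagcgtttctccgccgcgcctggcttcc
The capitals are a TATA box (TATAAA) in Inhba, a GC box (GGGCGG) in Inhbb, and GC boxes with a Smad box (CAGAC) in Acvr2a.

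The Inhba window stood apart in base composition from those of the other members searched. It had 43.2% G and C and 3 CpG dinucleotides, and 19% of 32851 promoter windows of the same length had a lower G and C share. Inhbb had 68.0% and 21 CpG, and Acvr2a 82.0% and 49 CpG. Windows of 7 members were searched, without Smad7, which was left out, and Fst, which had no entry. The 6 besides Inhba ranged from 68.0% to 85.6%. The TATA box of Inhba began 91 bases before the start, and 12.4% of all windows held that word. The GC box occurred in 6 of the 7 windows, Inhba being without it, and in 32.7% of all windows. The Smad box occurred in 2 of the 7 windows and in 42.2% of all windows. Matches to the AP-1 site (TGANTCA), the cyclic AMP response element (TGACGTCA), its shorter form (TGACG, which the full element contains), the EGR site (GCGTGGGCG), the CArG box and the MEF2 site were in 0 of the 7 windows. Across all windows these words occurred in 6.75%, 1.55%, 17.8%, 0.536%, 1.47% and 0.508%, in the order given.

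The libraries themselves need a description before the values. On the first principal component of 12533 tested genes, which held 53.3% of the variance, replicate 1 of wild-type and replicate 1 of Tet1-deficient hippocampus lay at -26.7 and -27.9, and the other 4 libraries between 10.5 and 15.5. Both of these libraries lay below all of the other 4 in 35% of tested genes and above them in 28.5%. The difference between these 2 libraries and the other 4 had a correlation across 11811 genes of -0.63 with the G and C share of the longest transcript, so G and C-rich transcripts read lower in the 2; genes are not independent replicates. Wild-type replicate 1 alone expressed Xist, at 63.5 FPKM, where the other 5 libraries had at most 0.202 FPKM. It had Ddx3y, a gene of the Y chromosome, at 0.0381 FPKM, where the other 5 had at least 16.7 FPKM. By these genes that library came from a female and the other 5 from males, so the sexes were not balanced between the genotypes. The part of sex in the values was not tested. Tet1 measured 0.977, 0.718 and 0.897 FPKM across the wild-type replicates, against 0.740, 0.685 and 0.638 FPKM across the Tet1-deficient ones, overlapping levels that do not check the loss of a single exon. The neuronal markers were present throughout. Rbfox3 was at 65.4 and 70.2 FPKM in the 2 libraries that stand apart and 92.0 to 96.9 FPKM in the other 4. The dentate granule cell gene Prox1 was at 21.1 FPKM in both and 29.8 to 42.7 FPKM in the other 4. Other markers of these cells went the other way. Of 7 general neuron genes, 2 were higher and 3 lower in both libraries, and of 8 dentate granule genes, 2 were higher and 3 lower. Choroid plexus genes summed to 7.68 to 304.9 FPKM in the wild-type group and to 9.64 to 198.5 FPKM in the Tet1-deficient group, mainly through Ttr.

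Of the 8 members tested, 0 were called between the genotypes, against 0.0319% of all tested genes (4 of 12533; limma, adjusted p under 0.05). None of the 8 had an unadjusted p under 0.05 either, a level that 1.36% of tested genes reached. In all 9 members the groups overlapped, whereas 4.13% of tested genes had groups apart. The median log2 difference of the 8, Tet1-deficient minus wild-type on the log2(FPKM + 1) scale, was 0.03, beside 0.0055 over all tested genes. The adjusted limma p was 1.00 for every one of the 9.

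**Figure D1:**
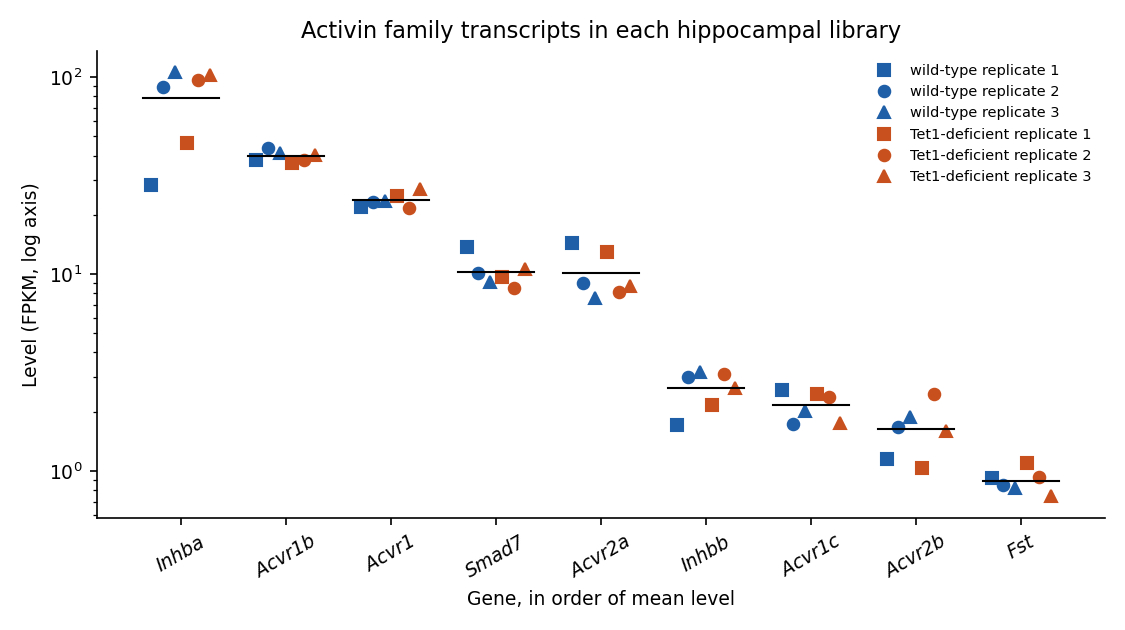
Level of each of the 9 genes in each library, in FPKM on a log axis, with blue for wild-type, orange for Tet1-deficient, squares, circles and triangles for replicates 1, 2 and 3, and a line at the mean of 6 libraries. Inhba spans 28.5 to 106 FPKM, with the squares of both genotypes lowest, while Acvr1b stays between 36.8 and 43.4 FPKM.

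Inhba was the most abundant transcript of the 9 and the one that varied most. In wild-type hippocampus it measured 28.5, 89.4 and 106 FPKM in replicates 1, 2 and 3. In Tet1-deficient hippocampus it measured 46.6, 97.0 and 102 FPKM. Replicate 1 was the low library in each genotype, and the other 4 lay close together, so the genotypes overlapped almost fully.

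Inhba averaged 74.7 ± 40.9 FPKM in the wild-type and 81.9 ± 30.7 FPKM in the Tet1-deficient group (SD, n = 3), a ratio of 1.10. The log2 difference of 0.25 had an SE of 0.53 and a 95% interval from -1.01 to 1.50 (limma, adjusted p 1.00). The two-sided exact permutation p was 0.7, and 0.1 is the smallest p that 3 against 3 libraries allow. The interval reaches past a doubling in one direction and a halving in the other, so the data bound the genotype difference of Inhba only loosely. Leaving out wild-type replicate 1 gave a log2 difference of -0.33, and leaving out Tet1-deficient replicate 1 gave 0.61. In the 4 libraries that lay together, the Tet1-deficient to wild-type ratio was 1.02, and between the 2 others it was 1.63, from 1 library each.

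The spread of Inhba over libraries was large beside other genes. Its SD on the log2 scale was 0.76 over 6 libraries, larger than in 99.4% of tested genes, whose median SD was 0.15. The 2 libraries that stand apart averaged 37.5 FPKM and the other 4 averaged 98.7 FPKM, 2.63 times as much. These libraries were set apart by all genes together, so this ratio is a description. When each library's trend on transcript G and C content and length was removed, a step added after the data were seen, the difference of the 2 from the other 4 went from -1.41 to -1.72 on the log2 scale. That corrected difference was larger in size than in 99.8% of 11811 genes. The Inhba transcript is poor in G and C, with 41.4%, and 9.70% of tested genes had less.

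Some cell type marker lists differed along this division of the libraries, and most did not. Of 12 marker lists, 3 had summed levels, as deposited, that did not overlap between the 2 libraries and the other 4. Of single tested genes, 63.5% parted the same libraries, a share of genes that cannot be compared directly with a share of list sums. The astrocyte list summed to 1048 and 1074 FPKM in the 2 and to 836 to 921 FPKM in the other 4, with 5 of its 8 genes higher and 1 lower in both. The list for CA3 pyramidal neurons summed to 332 and 374 FPKM against 510.5 to 580.1 FPKM, with 0 of 4 tested genes higher and 3 lower. The oligodendrocyte list summed to 3104 and 3403 FPKM against 3479 to 4041 FPKM, with 1 of 8 genes higher and 4 lower. By mean log2 deviation that list overlapped, at -0.0092 in wild-type replicate 1 and -0.0295 in wild-type replicate 3. The general neuron list overlapped, at 3835 and 4198 FPKM against 3672 to 4012 FPKM, as did the dentate granule list, at 144 and 146 FPKM against 129.6 to 155 FPKM. The part of these cell types in the Inhba values was not tested.

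Inhbb, which encodes the subunit of activin B, was far less abundant than Inhba. It measured 1.72, 3.02 and 3.17 FPKM across the wild-type replicates, against 2.17, 3.10 and 2.65 FPKM across the Tet1-deficient ones. Replicate 1 was again the lowest of each genotype, and the groups overlapped. The means were 2.64 ± 0.799 and 2.64 ± 0.469 FPKM (SD, n = 3), with a log2 difference of 0.02, an SE of 0.19 and a 95% interval from -0.43 to 0.47. Without wild-type replicate 1 the difference was -0.18. Its transcript is rich in G and C, with 60.9%, and the difference of the 2 libraries from the other 4 went from -0.44 to -0.06 when the G and C and length trend was removed. The pair of ligand genes thus parted under that removal, where Inhba kept its difference and Inhbb did not.

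Inhba exceeded Inhbb 16.6 to 38.5 times in FPKM within single libraries. The ratio was 16.6 and 21.5 in the 2 libraries that stand apart and 29.6 to 38.5 in the other 4. By genotype it ran from 16.6 to 33.5 in wild-type and from 21.5 to 38.5 in Tet1-deficient hippocampus, which overlap. Inha, whose product pairs with a beta subunit to form inhibin, an antagonist of activin, measured 8.04 FPKM on average in the wild-type group and 9.07 FPKM in the Tet1-deficient group, below Inhba in all 6 libraries. Inhba was 3.99 to 12.5 times Inha.

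Fst had the lowest level of the 9. It measured 0.921, 0.845 and 0.818 FPKM across the wild-type replicates, against 1.10, 0.936 and 0.744 FPKM across the Tet1-deficient ones, with overlap. The means were 0.861 ± 0.0538 and 0.926 ± 0.178 FPKM (SD, n = 3). Its log2 difference, from the model fitted to all genes above 0, was 0.05 with an SE of 0.08 and a 95% interval from -0.15 to 0.24. At this level the added 1 FPKM of the log scale shrinks a difference, and read depth is unknown. Inhba exceeded Fst 30.9 and 42.4 times in the 2 libraries that stand apart and 104 to 137 times in the other 4.

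Among the type I receptors Acvr1b, which encodes ALK4, the main type I receptor of activin A, was the most abundant. It measured 37.9, 43.4 and 41.1 FPKM across the wild-type replicates, against 36.8, 37.9 and 40.2 FPKM across the Tet1-deficient ones. The 6 libraries lay close together and the genotypes overlapped. The means were 40.8 ± 2.75 and 38.3 ± 1.71 FPKM (SD, n = 3), and the log2 difference, -0.09, had an SE of 0.09 and a 95% interval from -0.31 to 0.13. The difference was -0.14 without wild-type replicate 1 and -0.044 without wild-type replicate 2. Only 18.3% of tested genes had a smaller SD over libraries on the log2 scale.

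Acvr1, which encodes ALK2, a receptor known mainly for bone morphogenetic proteins, had an intermediate level. It measured 21.9, 23.2 and 23.5 FPKM across the wild-type replicates, against 24.9, 21.6 and 27.1 FPKM across the Tet1-deficient ones. The lowest and the highest library were both Tet1-deficient. The log2 difference, 0.09, had an SE of 0.11 and a 95% interval from -0.16 to 0.34. The difference was 0.019 without Tet1-deficient replicate 3 and 0.17 without Tet1-deficient replicate 2. Acvr1b exceeded Acvr1 in 6 of 6 libraries, by 1.48 to 1.87 times.

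Acvr1c, which encodes ALK7, a receptor of activin B and Nodal, was the scarcest of the 3 activin type I receptor transcripts followed here. It measured 2.57, 1.74 and 2.01 FPKM across the wild-type replicates, against 2.47, 2.38 and 1.76 FPKM across the Tet1-deficient ones, with overlap. The log2 difference, 0.05, had an SE of 0.14 and a 95% interval from -0.29 to 0.38. Replicate 1 was the highest library of each genotype, and the difference of the 2 libraries from the other 4 went from 0.25 to -0.09 when the G and C and length trend was removed. Acvr1b exceeded it 14.7 to 25 times.

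The type II receptors differed from each other in level and in how they varied. Acvr2a measured 14.4, 9.02 and 7.52 FPKM across the wild-type replicates, against 13.0, 8.12 and 8.71 FPKM across the Tet1-deficient ones. Replicate 1 was the highest library in each genotype, the reverse of Inhba, and the genotypes overlapped. The means were 10.3 ± 3.63 and 9.93 ± 2.64 FPKM (SD, n = 3), with a log2 difference of -0.03, an SE of 0.26 and a 95% interval from -0.64 to 0.57. Without wild-type replicate 1 the difference was 0.22 and without Tet1-deficient replicate 1 it was -0.22.

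Acvr2b, the other type II receptor gene, measured 1.15, 1.68 and 1.88 FPKM across the wild-type replicates, against 1.04, 2.46 and 1.61 FPKM across the Tet1-deficient ones. Here replicate 1 was the lowest of each genotype, as for the ligand genes. The means were 1.57 ± 0.378 and 1.70 ± 0.713 FPKM (SD, n = 3), and the log2 difference, 0.05, had an SE of 0.21 and a 95% interval from -0.45 to 0.55. Acvr2a exceeded Acvr2b 12.5 times in each of the 2 libraries that stand apart and 3.30 to 5.42 times in the other 4. Their differences of the 2 from the other 4 were 0.65 for Acvr2a and -0.46 for Acvr2b, and 0.27 and -0.30 after removal of the G and C and length trend. The Acvr2a transcript has 39.9% G and C, and 5.54% of tested genes had less, while Acvr2b has 54.4%, and 74.2% had less.

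Smad7 measured 13.7, 10.1 and 9.08 FPKM across the wild-type replicates, against 9.67, 8.52 and 10.6 FPKM across the Tet1-deficient ones. Wild-type replicate 1 was the highest, and the remaining 5 libraries of both genotypes overlapped. The means were 11 ± 2.44 and 9.59 ± 1.04 FPKM (SD, n = 3), with a log2 difference of -0.16, an SE of 0.16 and a 95% interval from -0.54 to 0.21. Without wild-type replicate 1 the difference was -0.0050. With the G and C and length trend removed, the 2 libraries averaged 0.53 above the other 4 on the log2 scale. It had been 0.25 before. That size was larger than in 97.2% of genes, but the 2 libraries were unequal. The corrected deviation was 0.56 in wild-type replicate 1 and 0.15 in Tet1-deficient replicate 1, beside -0.016 in Tet1-deficient replicate 3. In whole tissue, fewer cells of a type and less RNA per cell cannot be told apart, and the 12 endothelial markers summed to 49.9 to 75.5 FPKM in the wild-type group and to 41.4 to 72.8 FPKM in the Tet1-deficient group. The endothelial sum was highest in wild-type replicate 3 and Tet1-deficient replicate 2, the libraries in which Smad7 was lowest in each genotype. The part of these cells in the Smad7 values was not tested.

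**Figure D2:**
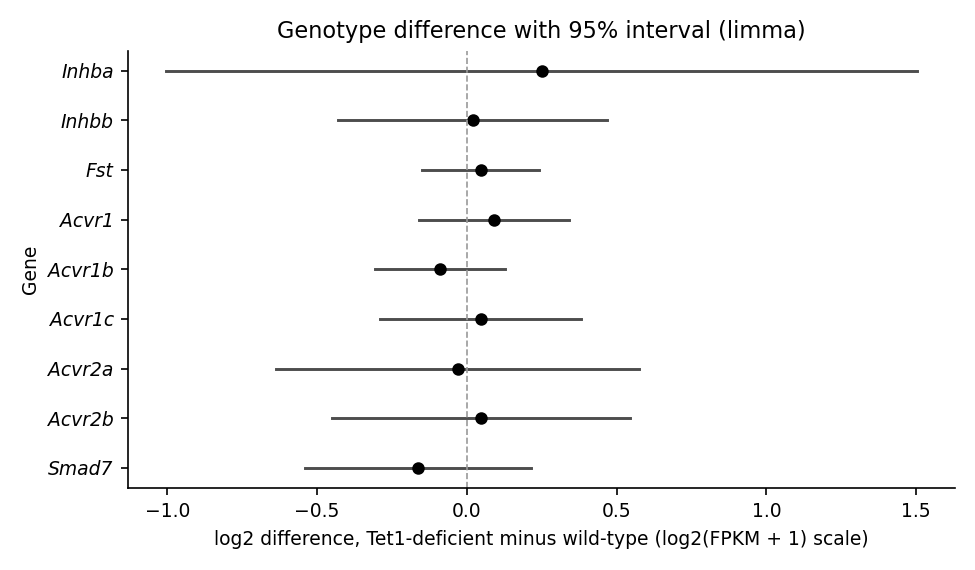
Log2 difference of each gene, Tet1-deficient minus wild-type on the log2(FPKM + 1) scale, as a point with its 95% interval from limma over 3 libraries per genotype. All 9 intervals hold 0, and that of Inhba is the widest, from -1.01 to 1.50.

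The order of the 9 transcripts by mean FPKM, which is per transcript length, was Inhba, Acvr1b, Acvr1, Smad7, Acvr2a, Inhbb, Acvr1c, Acvr2b and Fst. The ranges over 6 libraries did not meet at 3 steps, between Acvr1b and Acvr1, between Acvr1 and Smad7, and between Acvr2a and Inhbb. Inhba exceeded Acvr1b in 5 of 6 libraries, the exception being wild-type replicate 1. Smad7 and Acvr2a did not differ beyond their spread, with means of 10.3 and 10.1 FPKM and Smad7 higher in 4 of 6 libraries. Inhbb, Acvr1c and Acvr2b also overlapped from one to the next, with means of 2.64, 2.16 and 1.64 FPKM, as did Acvr2b and Fst.

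Among the tested members 3 lay lower in both of the 2 libraries that stand apart than in all of the other 4 (Inhba, Inhbb and Acvr2b) and 2 lay higher (Acvr1c and Acvr2a). That is 5 of 8, beside 63.5% of all tested genes, so the share of members was near that of genes in general. Across the 6 libraries, the r of log2(FPKM + 1) with Inhba was 0.96 for Inhbb, 0.79 for Acvr2b, 0.58 for Acvr1b, 0.27 for Acvr1, -0.73 for Acvr1c, -0.76 for Smad7 and -0.97 for Acvr2a. These are descriptions over libraries that fall into 2 sets. After removal of the G and C and length trend they were 0.46 for Inhbb, 0.71 for Acvr2b, -0.43 for Acvr1b, 0.37 for Acvr1, 0.34 for Acvr1c, -0.92 for Smad7 and -0.90 for Acvr2a. The r of Smad7 and Acvr2a with Inhba stayed negative, and the likeness of Inhbb to Inhba became weaker. As deposited, 9.38% of tested genes had an r under -0.9 with Inhba, and the share on corrected values was not computed. Corrected Acvr2a deviated by 0.31 in wild-type replicate 1, 0.06 in Tet1-deficient replicate 1 and 0.02 in wild-type replicate 2.

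**Figure D3:**
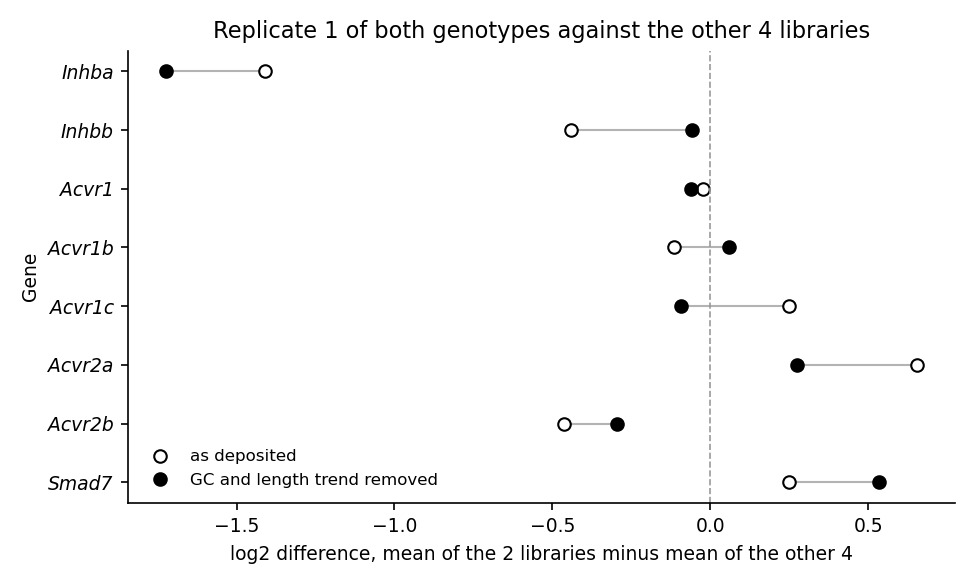
Log2 difference between the mean of replicate 1 of both genotypes and the mean of the other 4 libraries for the 8 tested genes, as deposited (open) and after removal of each library's trend on transcript G and C content and length (filled). Inhba moves from -1.41 to -1.72, Inhbb from -0.44 to -0.06 and Smad7 from 0.25 to 0.53.

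Other activity-regulated genes were set beside Inhba in the same libraries. Immediate early genes are the fastest to be transcribed in a firing neuron, and the values of Npas4 and Fos are given as examples of a list of 19. Npas4 measured 15.5, 5.14 and 3.97 FPKM across the wild-type replicates, against 8.03, 3.94 and 4.78 FPKM across the Tet1-deficient ones. Fos measured 39.3, 20.4 and 15.9 FPKM across the wild-type replicates, against 31.8, 15.2 and 27.5 FPKM across the Tet1-deficient ones. For both genes the 2 libraries that stand apart were the highest of all 6.

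Of the 19 immediate early genes, 10 were higher in both of these libraries than in all others, 3 were lower and 6 were mixed, beside 28.5% higher and 35% lower of all tested genes. As deposited, the mean deviation of the 19 was 0.46 in wild-type replicate 1 and 0.13 in Tet1-deficient replicate 1, and in the other 4 libraries it ran from -0.31 to 0.11. The summed FPKM of the list put Tet1-deficient replicate 1, at 1130.0 FPKM, behind wild-type replicate 1 at 1326 FPKM and Tet1-deficient replicate 3 at 1314 FPKM. With the G and C and length trend removed, the mean deviation of the 19 from their gene averages was 0.57, -0.19 and -0.34 across the wild-type replicates, against 0.27, -0.37 and 0.06 across the Tet1-deficient ones, on the log2 scale. The deviations of Inhba on that scale were -1.46, 0.44 and 0.71 across the wild-type replicates, against -0.84, 0.55 and 0.60 across the Tet1-deficient ones. By the mean deviation the 2 libraries lowest in Inhba were the 2 highest of the list, but as deposited Tet1-deficient replicates 1 and 3 were nearly equal, and by the sum the order was different.

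Of the 14 delayed activity-regulated genes, 5 were higher and 6 lower in both of these libraries than in all others. The corrected mean deviations of the 14 ran from -0.07 to 0.10, over genes that went both ways. Bdnf, a neurotrophin gene of that list, measured 65.8 and 59.6 FPKM in the 2 libraries and 41.4 to 48.0 FPKM in the other 4. Arc, of the immediate early list, spanned 181 to 271 FPKM, and its values in these libraries, 209 and 181 FPKM, were among the 3 lowest. No correlation between Inhba and these lists was computed, since the libraries fall into 2 sets of 4 and 2.

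**Figure D4:**
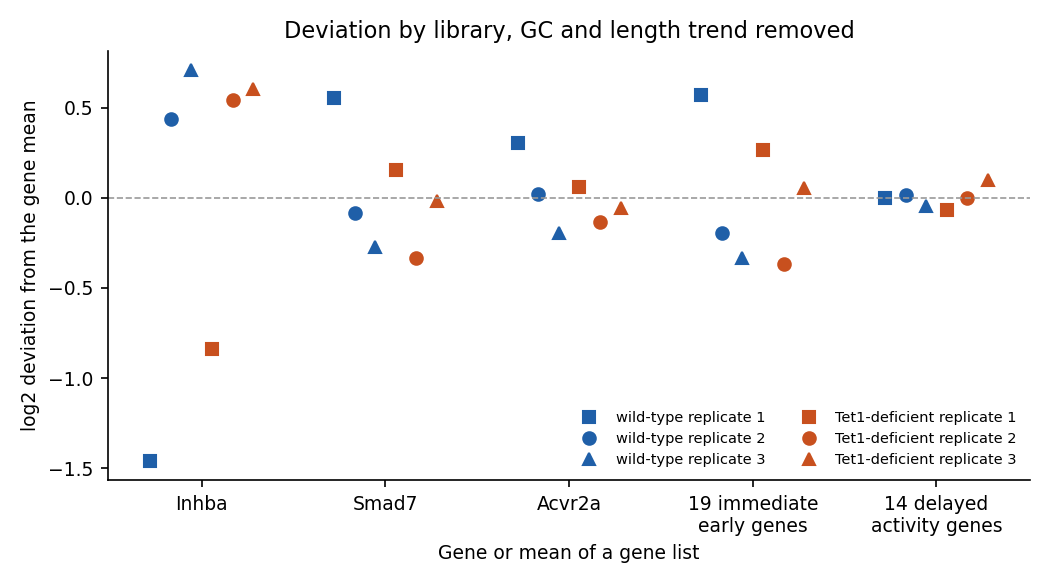
Deviation of each library from the gene's mean over 6 libraries, on the log2 scale with the G and C and length trend removed, for Inhba, Smad7, Acvr2a and the means of 19 immediate early and 14 delayed genes; blue is wild-type, orange Tet1-deficient, and squares, circles and triangles are replicates 1, 2 and 3. The squares are lowest for Inhba, at -1.46 and -0.84, and highest for the immediate early mean, at 0.57 and 0.27.

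The genes whose profile over the 6 libraries was most like that of Inhba were Fam195a, Fam214b, Zgpat, Baiap2, Prkrip1, Lin37, Synj2, Uck1, Hmgn3 and 5031439G07Rik, with r from 0.995 to 0.998 as deposited. Baiap2 encodes a postsynaptic scaffold protein, and it measured 149, 252 and 275 FPKM across the wild-type replicates, against 193, 266 and 262 FPKM across the Tet1-deficient ones. Such likeness was common, since 1794 genes, or 14.3% of those tested, had an r above 0.9 with Inhba and 9.38% had an r under -0.9. None of these 10 genes was a member of the pathway lists.

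The rest of the TGF-beta family pathway was described from lists of 78 genes by role, of which 53 were tested. Of these 53, 0 were called in either direction (limma, adjusted p under 0.05), 22 were higher and 31 lower in Tet1-deficient hippocampus, and 1 had an unadjusted p under 0.05. Their median log2 difference was -0.02, beside 0.0055 over all tested genes. The groups were apart for 2 of them, Tgfb1 and Bmp4, beside 4.13% of all tested genes. Tgfb1, a ligand of microglia and vessels among other cells, measured 1.72, 1.73 and 2.1 FPKM across the wild-type replicates, against 1.58, 1.66 and 1.65 FPKM across the Tet1-deficient ones. Bmp4, a bone morphogenetic protein gene, measured 2.15, 2.25 and 2.58 FPKM across the wild-type replicates, against 1.61, 1.97 and 1.94 FPKM across the Tet1-deficient ones, with a log2 difference of -0.23 and an adjusted limma p of 1.00. Neither is among the genes the naming rule takes, and both were chosen after their values were seen.

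Among the 6 tested activin and TGF-beta class ligands, 5 had higher and 1 had lower means on the log scale in Tet1-deficient hippocampus. The most abundant were Tgfb2, Gdf11 and Inha, with means over 6 libraries of 20.0, 9.80 and 8.56 FPKM. Gdf11, a ligand of the activin receptors, had 8.09 to 11.4 FPKM over the libraries. Gdf1, a ligand related to Nodal, was the gene with an unadjusted p under 0.05 (0.0445, adjusted limma p 1.00). It measured 0.624, 0.0379 and 0.532 FPKM across the wild-type replicates, against 14.3, 0.446 and 5.07 FPKM across the Tet1-deficient ones, so the groups overlapped and Tet1-deficient replicate 1 carried most of the difference.

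The Gdf1 value is uncertain because its locus lies inside that of Cers1, a ceramide synthase gene, on the same strand. Gdf1 occupies 70329817 to 70331587 and Cers1 70315775 to 70331592 on chromosome 8 (mm10). Cers1 measured 33.6, 41.0 and 36.2 FPKM across the wild-type replicates, against 22.0, 40.1 and 30.5 FPKM across the Tet1-deficient ones. It was lowest in the same libraries, Tet1-deficient replicates 1 and 3, in which Gdf1 was highest. How reads were divided between the 2 genes was not tested.

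Of 5 tested bone morphogenetic protein and related ligands 1 was higher and 4 lower, with a median log2 difference of -0.17. Gdf10, Bmp7 and Bmp6 were the most abundant, at 6.10, 2.80 and 2.56 FPKM over 6 libraries. Bmp7, a ligand that meningeal and choroid plexus cells also make, measured 3.09, 1.99 and 5.34 FPKM across the wild-type replicates, against 1.79, 3.02 and 1.59 FPKM across the Tet1-deficient ones. Ttr, which marks choroid plexus, was 11.7, 3.44 and 294 FPKM across the wild-type replicates, against 17.7, 187 and 5.85 FPKM across the Tet1-deficient ones, so wild-type replicate 3 and Tet1-deficient replicate 2 were the highest of their genotypes for Ttr and for Bmp7. The part of those cells in the Bmp7 values was not tested.

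Receptors and co-receptors outside the 9 gave 4 higher and 7 lower of 11 tested. Bmpr2, a type II receptor of bone morphogenetic proteins that can also bind activins, averaged 19.3 FPKM, the co-receptor gene Rgmb 19.1 FPKM and the type I receptor gene Bmpr1a 11.7 FPKM. Bmpr1a, like Acvr2a, was higher in the 2 libraries that stand apart, with 15.1 and 16.3 FPKM against 9.36 to 10.5 FPKM in the other 4. The same held for 28.5% of all tested genes.

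Among 11 tested antagonists 5 were higher and 6 lower. Nbl1, Fstl1 and Chrd, of which Nbl1 and Chrd encode secreted binders of bone morphogenetic proteins, averaged 28.3, 14 and 13 FPKM. Fstl3, which encodes another activin-binding protein related to follistatin, stayed at 0.10 to 0.138 FPKM and was not tested. Lefty2, an antagonist of Nodal, was also under the filter, at 0.567, 0.720 and 0.505 FPKM across the wild-type replicates, against 0.411, 0.290 and 0.452 FPKM across the Tet1-deficient ones, with groups that were apart. In the model of all genes above 0 its unadjusted limma p was 0.0234 and its adjusted p 1.00.

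The 6 tested Smad genes beyond Smad7 had log2 differences from -0.06 to -0.01, and 0 of them were called. Smad3, a carrier of the activin signal to the nucleus, averaged 18.3 FPKM, its partner Smad4 12.4 FPKM, and Smad1, of the bone morphogenetic protein branch, 7.67 FPKM. Smad3 measured 13.0, 20.4 and 22.2 FPKM across the wild-type replicates, against 12.6, 25.5 and 16.1 FPKM across the Tet1-deficient ones. It was lowest in replicate 1 of both genotypes, like Inhba and 35% of all tested genes. Smad4 stayed between 11.8 and 13.0 FPKM.

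Of 14 tested Smad regulators and targets 7 were higher and 7 lower. Id2, Ski and Ppm1a had the highest means, 61.4, 53.2 and 46.9 FPKM. Ski, a corepressor of Smad-driven transcription, measured 40.7, 57.1 and 60.3 FPKM across the wild-type replicates, against 45.8, 61.2 and 53.9 FPKM across the Tet1-deficient ones. Ppm1a, which encodes a phosphatase of Smad2 and Smad3, had 44.8 to 48.7 FPKM in the 6 libraries.

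**Figure D5:**
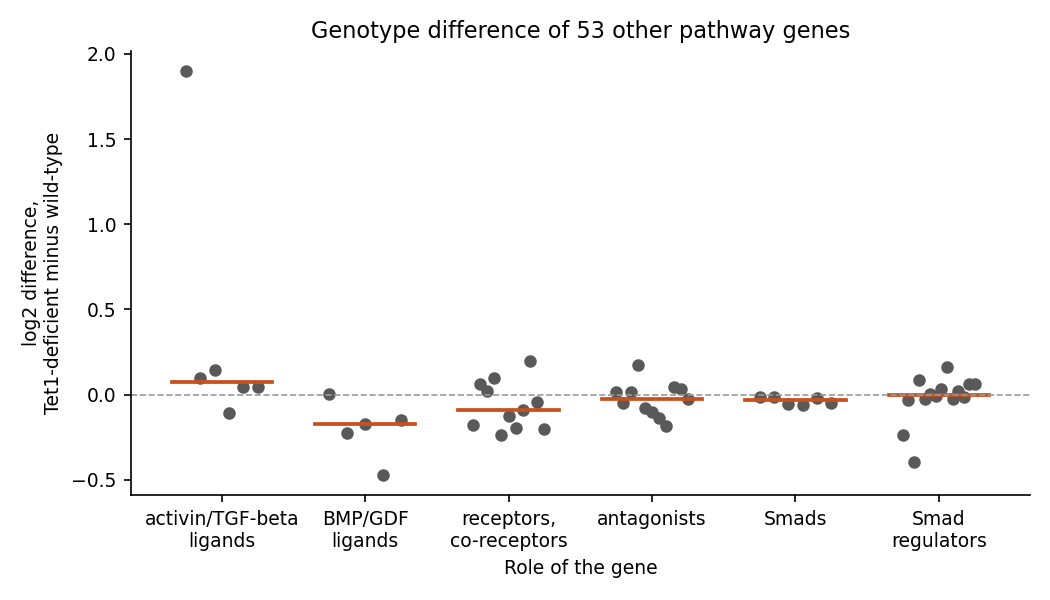
Log2 difference, Tet1-deficient minus wild-type on the log2(FPKM + 1) scale, of 53 other tested genes of the TGF-beta family pathway, 1 point per gene grouped by role, with a line at each group's median. Gdf1 lies apart at 1.90 and the medians of the 6 groups lie between -0.17 and 0.07.

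In the mm10 annotation the genes other than Smad7, which was not looked up, are all protein-coding and have the following places. Inhba spans 16011851 to 16031621 on chromosome 13 and Fst 114452290 to 114458951 on the same chromosome. Inhbb spans 119415465 to 119422248 on chromosome 1. On chromosome 2 lie Acvr2a (48814109 to 48903269), Acvr1c (58267453 to 58357895) and Acvr1 (58388644 to 58567157), the last pair being neighbours on the minus strand. Acvr2b spans 119402118 to 119434995 on chromosome 9 and Acvr1b 101174067 to 101213684 on chromosome 15.

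The strand setting of the counting is not given in the sources used here, and reads of genes on opposite strands may then be shared. Inhba overlaps B230303A05Rik and Gm48444 on the opposite strand, Fst overlaps Gm47040, Acvr1 overlaps Gm17409, Acvr1c overlaps Gm13544 and Gm13545, Acvr2b overlaps Gm47320, and Acvr2a overlaps Orc4. Orc4, a replication origin gene, measured 10.3 to 20.2 FPKM. Like Acvr2a, Orc4 was highest in replicate 1 of both genotypes, at 15.4 and 20.2 FPKM. Of all tested genes, 28.5% were likewise higher in both of these libraries than in the other 4. Whether Acvr2a and Orc4 shared reads was not tested, and the Acvr2a value is uncertain in that respect. Gm13544 had at most 0.0235 FPKM. Overlaps of Smad7 with other genes were not looked up.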

How the data were processed

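RNA sequencing measured whole hippocampus of 3 wild-type and 3 Tet1-deficient mice, and the authors deposited FPKM per gene for each library. The tools were TopHat2 2.0.9 and Cufflinks 2.1.1 on the build mm10, per the submitters' processing notes; the sources used here do not give annotation, strand setting or filters. Low values showed no steps of whole reads (of 362 genes under 0.03 FPKM in 2 libraries, no ratio to 3 decimals was shared by more than 5), so depth is unknown and intervals from counts are left out. Library sums lay between 371014 and 390042 FPKM. Groups come from the labelled genotype, and replicate numbers follow the order of the samples and pair none.

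Values of genes averaging 1 FPKM or more were tested as log2(FPKM + 1), which understates differences of low genes, with limma 3.58.1 in R 4.3.3 (intensity trend, no covariate, two-sided, Benjamini-Hochberg over all 12533 genes, threshold 0.05), a step tested on simulated data. Single genes had an exact permutation test. SE and 95% intervals are limma's. Members and gene lists were chosen with earlier results of these data known. Named are the 9 members, per role list the 3 highest means and any unadjusted p under 0.05, the 10 genes most like Inhba, Tet1 and marker genes; not all are reported. The alternatives tried were no filter, other level limits, a pseudocount of 0.1 FPKM, median-of-ratios scaling, quantile normalization, no trend, library weights, each library left out, and 4 libraries alone. Added after the data were seen were the library split as a term and removal of spline trends (5 degrees of freedom each) on transcript G and C content and length, from GENCODE M21 for 94.2% of tested genes. A planned correlation of members with gene lists was not run, since the libraries fall into 2 sets.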

Additional observations from a re-analysis of the deposited data

How the results depend on the processing

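Under 15 alternatives 0 of the tested members and 0 of the other pathway genes were called. Of 134 member values under these, 114 kept their direction and 20 changed sign, all with an adjusted limma p above 0.05. With library weights the log2 difference became -0.12 for Inhbb, -0.037 for Fst, -0.0056 for Acvr1c, 0.0089 for Acvr2a, -0.022 for Acvr2b and 0.052 for Smad7. In the 4 libraries alone it became -0.081 for Inhbb and 0.026 for Acvr2a, and with the G and C and length trend removed -0.0085 for Acvr1c. With 1 library left out, it ran from -0.33 to 0.61 for Inhba, -0.18 to 0.13 for Inhbb, -0.018 to 0.12 for Fst, -0.041 to 0.15 for Acvr1c, -0.22 to 0.22 for Acvr2a and -0.15 to 0.23 for Acvr2b. Acvr1 ran from 0.019 to 0.17, Acvr1b from -0.14 to -0.044 and Smad7 from -0.28 to -0.0050. Acvr1 and Acvr1b kept their direction under every alternative run. Among all genes 4 were called, and 59 with library weights, 13 in the 4 libraries alone, 8 with the split as a term and 0 to 6 with 1 library left out (0 without replicate 3 of wild-type or replicate 2 of Tet1-deficient hippocampus); the cause was not tested. Fst passed a limit of 0.5 FPKM, which made 9 members, and at 2 FPKM 7 remained. Depth is unknown, which limits what can be said of Fst, Acvr2b and other genes near 1 FPKM.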

Other observations

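With the G and C and length trend removed, 12 of 11811 genes had a lower difference of the 2 libraries from the other 4 than Inhba. They were chosen after their values were seen. Among them were small RNA genes listed at 0 in several libraries, the Y chromosome genes Eif2s3y and Ddx3y, which wild-type replicate 1 nearly lacked, and Pet117, a mitochondrial assembly factor gene, with 3.53 and 3.11 FPKM in the 2 libraries and 21.6 to 23.8 FPKM in the other 4. Fgf2, a growth factor gene outside those 12, with a corrected difference of -0.97, measured 0.745 and 0.910 FPKM in the 2 and 1.70 to 2.30 FPKM in the others.

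On the same corrected values the profiles most like that of Inhba were those of Amer2, Zfp940, Rcor3, Lmna, Ttc17, Acin1, Zc3h15, Ccdc77, Aamdc and Lsg1, with r from 0.995 to 0.998 over 6 libraries. Lmna, which encodes lamin A and C of the nuclear envelope, measured 13.5, 21.7 and 23.3 FPKM across the wild-type replicates, against 14.4, 22.5 and 23.2 FPKM across the Tet1-deficient ones. In all, 1219 of 11810 genes had an r above 0.9 with Inhba on these values, and 0 of these 10 genes were among the 10 most like Inhba as deposited.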
